A study of Homo sapiens with 10 samples.

Results

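The mesendoderm transcription factors described here are EOMES, MIXL1, GSC and LHX1. A list of 5 gene symbols (T, EOMES, MIXL1, GSC and LHX1) was looked up by name among the 12125 genes of the deposited table, and 4 of the 5 were found; T was not analysed here. The RNA came from the human embryonic stem cell (hESC) line H1, which was taken towards hepatocyte-like cells in serum-free medium, with 1 bulk RNA-seq library on each of 10 days of the course. A day is written as D with its number; the libraries were taken daily from D0 to D3, on alternate days from there to D13, and on D21. D0 was the undifferentiated culture in mTeSR1 on Matrigel, without treatment. From D1 to D3 the medium was RPMI with a supplement lacking insulin, and it held Activin A (100 ng per ml). D5 and D7 were taken under FGF4 (30 ng per ml) and BMP2 (20 ng per ml), D9 and D11 under HGF and KGF (20 ng per ml), and D21 under Oncostatin M, OSM (20 ng per ml). The medium of D5 to D11 was RPMI with a supplement that included insulin, and OSM was given in a hepatocyte culture medium. D13 is labelled OSM, whereas the lengths of the steps in the protocol place it at the end of HGF and KGF. All libraries share 1 cell line, none was kept without Activin A, and no day has a replicate, so every difference below is a description with no test.

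Mesendoderm is the transient population of the primitive streak from which endoderm and mesoderm arise, and signalling by Nodal, for which Activin A stands in in culture, promotes its formation together with Wnt. EOMES (eomesodermin) is a T-box transcription factor required for definitive endoderm (DE). MIXL1 and GSC (goosecoid) are paired-type homeobox factors, of which the first is active in the primitive streak and the second in the organizer and anterior mesendoderm. LHX1 is a LIM homeobox factor of the anterior mesendoderm that works with the adaptor LDB1. In bulk libraries, fewer cells that use a gene and less of its RNA in each cell cannot be told apart.

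The values are GC-normalized whole numbers, not read counts. Their distribution is shared by the libraries, with a median of 81 or 82 and a maximum of 18734 in each, so that the depth of a library cannot be read from them. The study gives an average depth over its libraries and no value for each. Between 109 and 315 genes per library are listed at 0, which can be a failed estimate as well as an absence of RNA. Changes are given on the scale of log2(value + 1), where those of low genes come out too small. Whether the values are per length is not given in the sources used here, so levels are compared between days of 1 gene and not between genes. In place of replicates, D9 and D11, which share a medium, show how far 2 libraries can differ. Their log2 differences had a standard deviation (SD) of 0.28 for the 1876 genes with a mean value from 200 to below 500, of 0.87 for the 1249 genes from 10 to below 25, and of 1.14 for the 283 genes below 5. These SDs also hold any true change between the 2 days. In the hESC library the pluripotency genes POU5F1 and NANOG had values of 4861 and 460, and the fetal liver gene AFP stood at 18734 from D7 on.

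EOMES (ENSG00000163508) lies on chromosome 3 between 27757440 and 27763989, minus strand. The intervals given here are those of the table, which names no build, while the submitters' processing notes list hg19 beside mm10. EOMES had a value of 7 at D0, 1088 at D1, 1435 at D2 and 1279 at D3. It then had 230 at D5, 35 at D7, 2 at D9, 0 at D11, 4 at D13 and 1 at D21. The libraries with Activin A were thus the highest, and D0 and the days from D9 to D21 all lay at 7 or lower. From D0 to D1 the value was 155-fold higher, a log2 difference of 7.09. In rank, the gene moved from the percentile 6.19 of the D0 library to 97.9 at D1 and 98.7 at D2. The libraries of D1, D2 and D3 differed little, by 0.40 from D1 to D2 and by -0.17 from D2 to D3, where 95% of genes of such a level differed by less than 0.58 between D9 and D11. Of the 4 factors, EOMES kept the largest share of its highest value at D5, 16.0%.

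MIXL1 (ENSG00000185155) lies on chromosome 1 between 226411319 and 226413565, plus strand. It had values of 6 at D0, 874 at D1, 1022 at D2 and 696 at D3, and of 24, 15, 4 and 2 at D5, D7, D9 and D11. It was listed at 0 at D13 and D21. The value at D1 was 146-fold that of D0, a log2 difference of 6.97, and already 85.5% of the highest value, the largest share of the 4 factors at that day. MIXL1 was lower at D3 than at D2 by a log2 difference of -0.55, which is within the 0.61 that held 95% of genes of such a level between D9 and D11. Its value then fell 29-fold to D5, a log2 difference of -4.80.

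GSC (ENSG00000133937) lies on chromosome 14 between 95234553 and 95236562, minus strand. It had values of 2 at D0, 202 at D1, 342 at D2 and 315 at D3. From D5 on, no value was above 1, with 0 at D5, D11, D13 and D21 and 1 at D7 and D9. The D1 value was 101-fold that of D0, a ratio to a very low value. The log2 difference from D1 to D2 was 0.76, and that from D2 to D3 was -0.12. The first was past the 0.51 that held 95% of genes of such a level between D9 and D11. It was inside the central 95% of all genes tested from D1 to D2, which ran from -1.03 to 1.33. GSC had the sharpest end of the 4 factors. Between D3 and D5 its log2(value + 1) fell by 8.30, the 4th largest fall of the 8767 genes tested, and because D5 is listed at 0 no fold is given.

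LHX1 (ENSG00000132130) lies on chromosome 17 between 35294772 and 35301917, plus strand. It was listed at 0 at D0 and had values of 42 at D1, 512 at D2 and 266 at D3. It then had 50 at D5, 27 at D7, 8 at D9 and 1 at D11, and was listed at 0 at D13 and D21. LHX1 neared its highest value later than the other 3 factors. From D0 to D1 it had already risen by a log2 difference of 5.43, a size that depends on the 1 added to each value. At D1 it stood at 8.20% of its highest value, and it rose 12.2-fold from D1 to D2, a log2 difference of 3.58. It was also the factor with the largest decrease inside the Activin A step, with a log2 difference of -0.94 from D2 to D3, where 95% of genes of such a level differed by less than 0.51 between D9 and D11. In GENCODE release 29, where LHX1 has another identifier than in the table and was matched by symbol, an antisense gene on the opposite strand overlaps it, and whether the counting used strand is not given in the sources used here. No other gene of that release overlaps EOMES, MIXL1 or GSC.

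Each of the 4 factors had its highest value at D2, as did 871 of the 12125 genes, or 7.18%, counting those whose highest value was at least 50 and was first reached there. To compare the timing without comparing levels, each value was taken as a percent of the gene's own highest value. EOMES, MIXL1 and GSC were above 50% at D1, D2 and D3, and LHX1 at D2 and D3. At D1 the order was MIXL1 with 85.5%, EOMES with 75.8%, GSC with 59.1% and LHX1 with 8.20%. At D3 the order was GSC with 92.1%, EOMES with 89.1%, MIXL1 with 68.1% and LHX1 with 52.0%. The neighbours in these orders cannot be separated for MIXL1 and EOMES at D1 or for GSC, EOMES and MIXL1 at D3, since their distances to D2 lie within the differences of D9 and D11. LHX1 at D1 stood apart from the other 3. At D5 the order was EOMES with 16.0%, LHX1 with 9.77%, MIXL1 with 2.35% and GSC at 0.

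**Figure D1:**
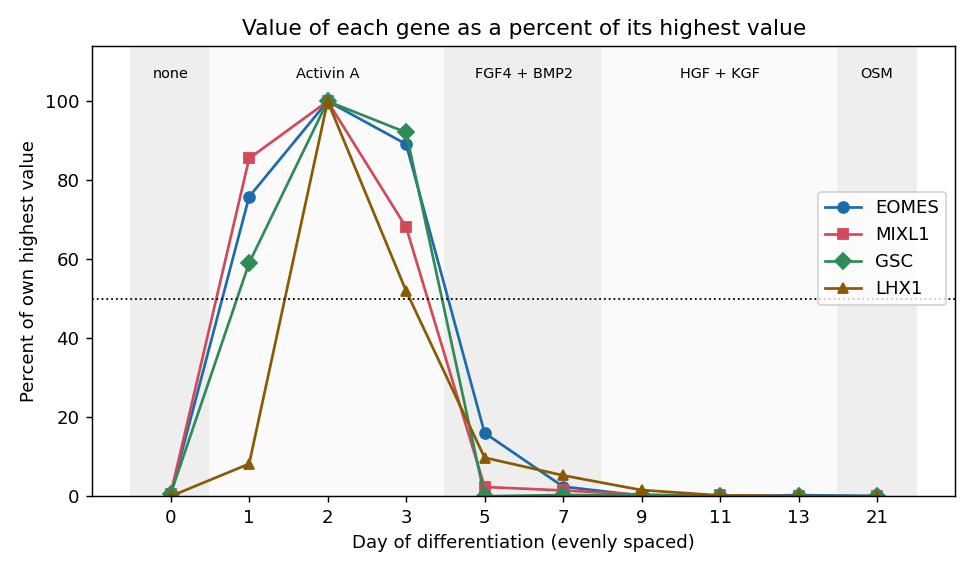
Value of each gene as a percent of its own highest value (vertical axis) against the day, with the media of the protocol above and a dotted line at 50%. LHX1 lies at 8.20% at D1, when the other 3 genes lie between 59.1% and 85.5%, and all 4 lie at or below 16.0% at D5.

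The 3 libraries with Activin A held most of the signal of these genes. Their values at D1 to D3 made up 99.5% of the sum over the 10 libraries for GSC, 98.1% for MIXL1, 93.2% for EOMES and 90.5% for LHX1. A share of at least 90% was found for 22 of the 10746 genes with a highest value of at least 50, and all 4 factors were among these. The others included the Nodal antagonists CER1 (99.9%), LEFTY2 (99.1%) and LEFTY1 (97.4%), and the growth factor genes FGF8 (99.4%) and FGF17 (97.4%). They also included the receptor gene RET (95.4%), the Wnt antagonist DKK4 (93.6%) and the retinoic acid hydroxylase CYP26A1 (91.4%). The 22 held genes of other kinds too, such as CD48 (97.9%), CNTNAP2 (92.5%) and SERPINB9 (90.1%). CER1 stood at the maximum of 18734 at D2 and D3, so its course inside the step cannot be read.

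Genes were called higher or lower where the larger value was at least 50 and log2(value + 1) differed by at least 2, a 4-fold change. From D0 to D1, 3 of the 4 factors were called higher, beside 1.02% of the 8629 genes tested, and LHX1 did not reach the minimum value. EOMES, MIXL1 and GSC had the 3rd, 4th and 6th largest rises of the tested genes. From D1 to D2 only LHX1 was called, beside 1.12% of genes called higher, and from D2 to D3 none of the 4 was called in either direction, beside 0.375% of genes higher and 0.0702% lower. From D0 to D3 all 4 were called higher, beside 3.94% of 8934 genes. On this interval LHX1 had the 4th largest rise, EOMES the 10th, GSC the 18th and MIXL1 the 20th. The place of LHX1, which was listed at 0 at D0, depends on the 1 added to each value: with 5 added, the differences were 6.74 for EOMES, 5.99 for MIXL1, 5.76 for LHX1 and 5.51 for GSC. The median difference of the 4 was 7.02, and that of all genes was -0.04.

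**Figure D2:**
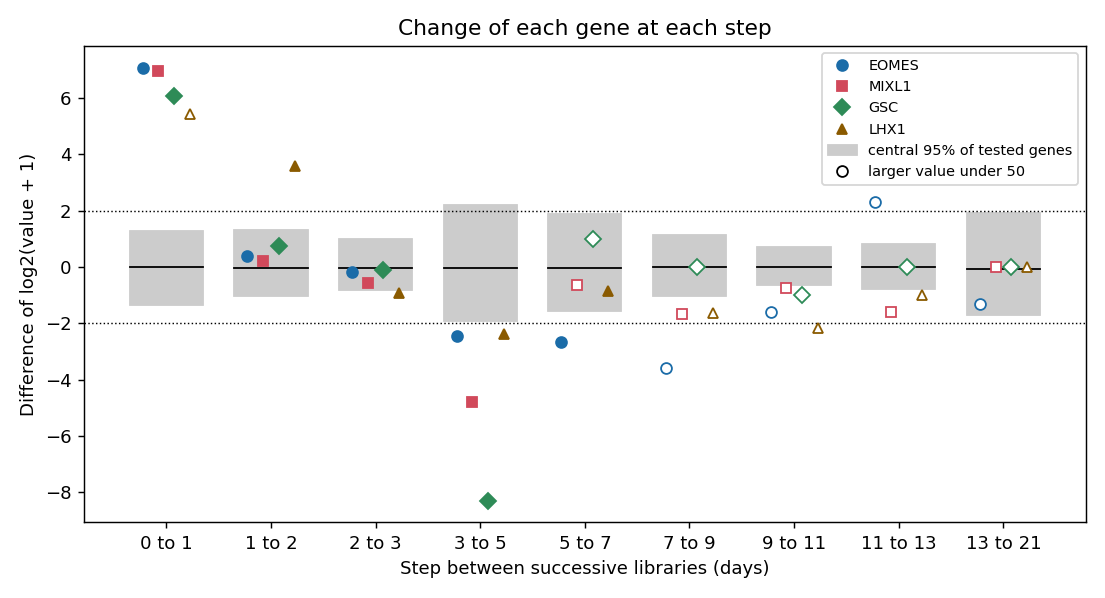
Difference of log2(value + 1) of each gene (points) at each step between successive libraries, with the central 95% (grey) and the median (line) of the tested genes and dotted lines at -2 and 2. Open points mark pairs whose larger value is under 50. The filled points leave the grey range upwards at the first step (EOMES, MIXL1, GSC) and the second (LHX1), and downwards from D2 to D3 (LHX1), from D3 to D5 (all 4) and from D5 to D7 (EOMES); some open points lie outside it too.

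The change from Activin A to FGF4 and BMP2 also brought insulin into the medium. All 4 factors were called lower at D5 than at D3, beside 2.24% of the 8767 genes tested. The median difference of the 4 was -3.64 and that of all genes 0. The decreases were unequal. EOMES and LHX1 fell 5.56-fold and 5.32-fold, MIXL1 29-fold, and GSC was listed at 0. From D5 to D7, under the same medium, EOMES fell a further 6.57-fold, a log2 difference of -2.68, beside 1.34% of 8755 genes called lower, while LHX1 had a log2 difference of -0.87 from 50 to 27, near the 0.85 that held 95% of genes of such a level between D9 and D11. From D3 to D13 all 4 were called lower, beside 5.6% of genes. EOMES had 35 at D7 and 2 at D9, and from D9 on no value of the 4 was above 8, so the differences between D9 and D21 are of the size seen for genes of such low values, whose SD was 1.14 to 1.31. At D21 all 4 genes were listed at 0 or 1.

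The courses of the factors were compared in pairs, by the Pearson correlation of log2(value + 1) over the 10 libraries. The points share 1 cell line, and the rise and fall of all 4 genes set most of each value, so that the values are a description. EOMES and MIXL1 were the most alike (r = 0.94), MIXL1 and GSC had 0.94 as well, MIXL1 and LHX1 0.90, EOMES and LHX1 0.90, EOMES and GSC 0.84, and GSC and LHX1 0.78. Values of at least 0.9 with EOMES were found for 67 of 10745 genes, with MIXL1 for 120, with GSC for 56 and with LHX1 for 38.

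Among all genes, the 5 of highest r were GTF2I, IER3, ESYT1, KCNG1 and ZMAT2 for EOMES (0.95 to 0.96), NIPA2, CNTNAP2, DTWD2, C3orf64 and FNBP1L for MIXL1 (0.97 to 0.98), CER1, FGF8, DTWD2, HEBP2 and C3orf64 for GSC (0.94 to 0.98), and TAF9B, ATP6V1D, CYP26A1, MTCH1 and PREX1 for LHX1 (0.96 to 0.97). A correlation does not use the size of a change, and several of these genes moved little, such as NIPA2, with 129 at D0, 179 at D2 and 104 at D21, and ZMAT2, with 123, 169 and 120. Others had large courses. IER3, an immediate early gene, went from 137 at D0 to 936 at D1 and 194 at D5. CYP26A1 went from 5 at D0 to 56 at D1, 1216 at D2 and 3434 at D3, and like LHX1 it was far from its highest value at D1.

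A second measure of likeness, chosen after the values were seen, was the root mean square difference of the percent of own highest value over the 10 libraries. By this measure CNTNAP2, which encodes a neuronal adhesion protein, was nearest to both EOMES (4.72 percentage points) and MIXL1 (4.85), with values of 324 at D0, 3863 at D1, 4858 at D2, 3863 at D3 and 360 at D5. RET, a receptor tyrosine kinase, was nearest to GSC (6.82), with 17 at D0, 135, 165 and 182 at D1 to D3 and 6 at D5. GSC and MIXL1 were among the 5 genes nearest to EOMES, at 7.42 and 8.51. NODAL, the ligand whose receptors Activin A shares, was the 5th nearest to GSC (9.46). LHX1 had none of the other 3 factors among its 5, which were SERPINB9 (6.05), LZTS1 (7.09), CD48 (7.45), LINC00467 (12.0) and GABRB2 (13.3). SERPINB9 stood at the maximum of 18734 at D2, so its percentages and its place rest on a value at the upper limit of the table. CD48, an immune cell surface protein, had 1 at D0, 6 at D1, 188 at D2, 135 at D3 and 0 at D5.

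The Nodal and Activin pathway was described by a list of 20 genes, of which 18 were found. From D0 to D1, 4 of the 17 tested were called higher and 0 lower, beside 1.02% and 0.811% of all genes tested, with a median difference of 0.39 for the list and of 0 for all genes. The 4 were NODAL (60 to 261), the antagonists LEFTY1 (174 to 1046) and LEFTY2 (64 to 2636), and CER1 (6 to 1638). The course of LEFTY2 was uneven, with 574 at D2 and 6495 at D3. From D0 to D3 SMAD2, the signal transducer, was called as well (214 to 938). SMAD2 was high in the D3 library alone, with 354 at D2 and 405 at D5. From D3 to D5, 5 of 18 were called lower and 0 higher, beside 2.24% and 2.85% of all genes tested. NODAL went from 488 to 7, the ligand GDF3 from 134 to 13, LEFTY1 from 4861 to 8, LEFTY2 from 6495 to 10 and CER1 from 18734 to 9. These falls came at the same step as those of the 4 factors, but NODAL did not stay low. From D5 to D7, 2 of 14 tested were called higher, NODAL (7 to 104) and SMAD3 (30 to 188), beside 2.25% of all genes, and TDGF1 alone was called lower, beside 1.34%. GDF3 had 42 at D7, below the minimum for a call. FOXH1, the DNA-binding partner of SMAD2, had another course, with 200 at D0, 226 at D3, 278 at D5, 146 at D7 and 0 at D13. TDGF1, the co-receptor of Nodal, had 1044 at D0 and 2638 at D1, 768 at D5 and 92 at D7.

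Of 22 genes of the canonical Wnt pathway, 20 were found, and 4 of 10 tested were called higher from D0 to D1, beside 1.02% of all genes tested. These were WNT3, a ligand of the primitive streak (6 to 94), the receptor FZD8 (12 to 64), a Wnt target, SP5 (2 to 86), and DKK4 (0 to 108). The median difference of the 20 was 0.12, and that of all genes was 0. AXIN2, of the same list, had another course than SP5, with 49 at D0, 42 at D1, 128 at D2 and D3, and 39 at D5. DKK1, a Wnt antagonist, had 2 at D0 and D1 and 176 at D2, so that it went up at the same step as the 12.2-fold rise of LHX1, and it had 12 at D5. At the step from D3 to D5 the list split, with 4 of 15 tested higher, beside 2.85% of all genes tested, and 3 lower, beside 2.24%. The 4 were RSPO3 (20 to 298), SP5 (72 to 302), SP8 (12 to 88) and NKD1 (18 to 102), and the 3 were FZD5 (1108 to 36), FZD8 (456 to 104) and DKK1 (214 to 12).

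The D1 library is labelled early definitive endoderm, and the markers of DE were checked there. SOX17, a defining factor of DE, had a value of 2 at both D0 and D1 and of 745 at D2. FOXA2 had 0, 42 and 200 at these days, GATA4 had 6, 6 and 160, and GATA6 had 2, 59 and 576. EOMES, MIXL1 and GSC were therefore above 50% of their highest values in a library in which SOX17 was at its D0 value. Of 15 endoderm factors listed, 14 were found, and 2 of 3 tested were called higher from D0 to D1, GATA6 and OTX2 (22 to 292), beside 1.02% of all genes. From D0 to D3, 8 of 9 tested were called higher, beside 3.94% of all genes, with a median difference of 4.59 for the list and of -0.04 for all genes. From D3 to D5 the list parted from the 4 mesendoderm factors, with 3 of 12 tested called higher (FOXA1, GATA3 and HNF4A) and 2 lower (HHEX and OTX2), beside 2.85% and 2.24% of all genes. GATA3 is also listed among the trophoblast markers described below. SOX17 still had 530 at D5, and GATA4 had 268 at D3 and 530 at D5. Of 10 genes of the axial mesendoderm, 7 were found, and 3 of 3 tested were called higher from D0 to D3, beside 3.94% of all genes. These 3 were DKK1, FST (26 to 238) and FRZB (24 to 158). The median difference of the 7 was only 0.17. FOXJ1 (16 to 2) and CHRDL1 (32 to 5) were lower at D3, FOXD3 had 23 and 26, and NOG was listed at 0 on both days. All of these were below the minimum for a call. At D5 FST had 669 and FRZB 2643, above their D3 values, whereas DKK1 had 12. None of the 7 hepatic markers reached the minimum value at D0, D1 or D3, and 7 of 7 were called higher from D3 to D13, beside 7.8% of all genes.

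**Figure D3:**
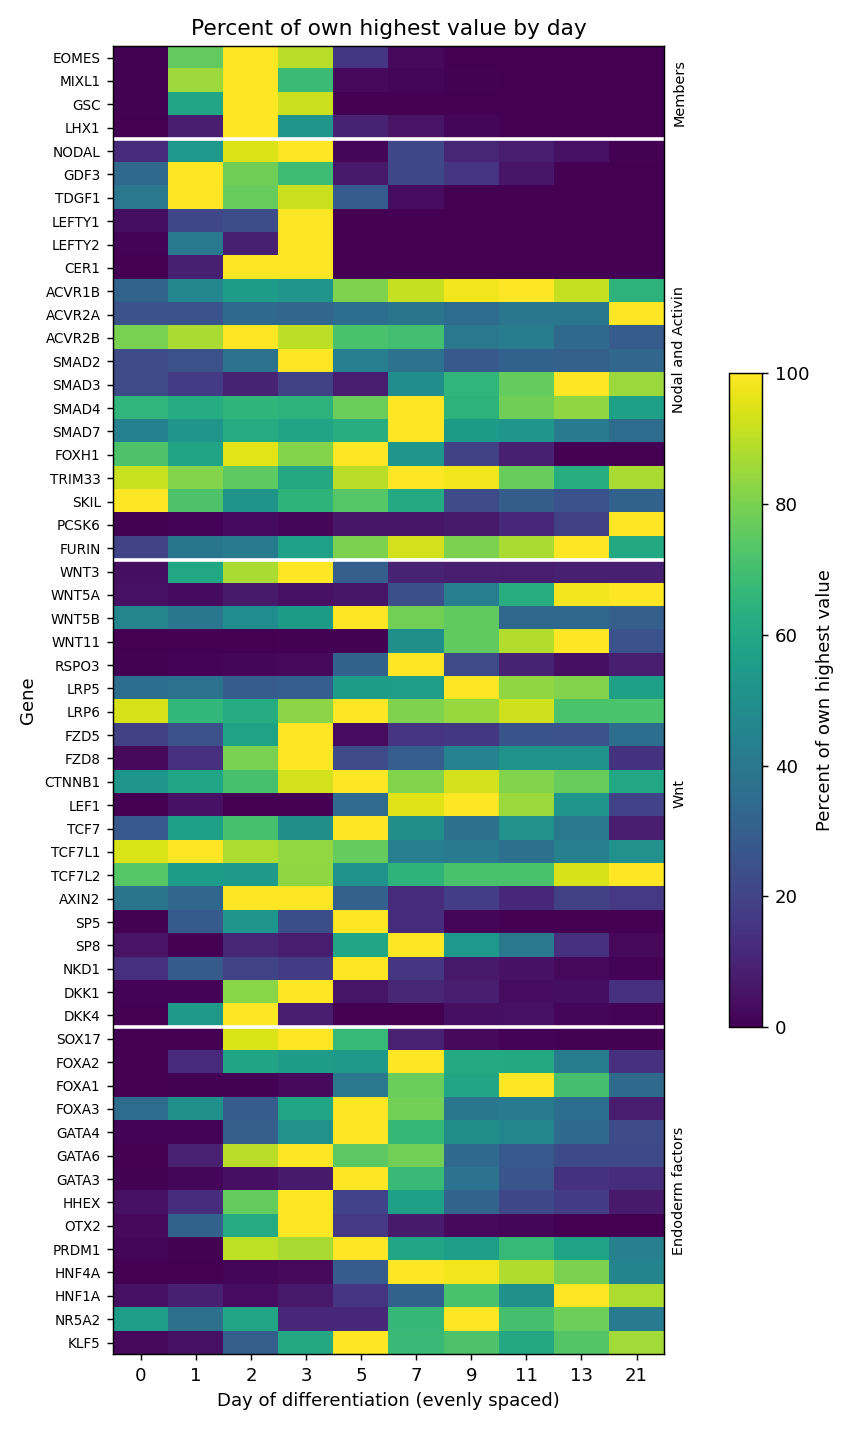
Percent of own highest value (colour) by day (horizontal axis) for the 4 mesendoderm factors and for the genes found of the Nodal and Activin, Wnt and endoderm lists (rows). The 4 factors, LEFTY1, LEFTY2 and CER1 lie low from D5 on, NODAL and GDF3 lie low at D5 and higher again at D7, and GATA4 has its highest value at D5 and HNF4A at D7.

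The pluripotency genes differed in the library in which the factors appeared. From D0 to D1 POU5F1 went from 4861 to 6498 and NANOG from 460 to 582. The log2 difference of NANOG, 0.34, lay within the 0.61 that held 95% of genes of such a level between D9 and D11. SOX2 went from 371 to 132, a log2 difference of -1.48, and DPPA4 from 2426 to 1214. Of 8 pluripotency markers, none was called lower from D0 to D1, beside 0.811% of all genes tested. From D0 to D3, 2 of 8 were called lower, beside 2.16% of all genes tested, SOX2 (371 to 82) and DPPA4 (2426 to 545). POU5F1 had 1280 at D3 and NANOG 286, log2 differences of -1.92 and -0.68 from D0, which did not reach a call. Whether the same cells held both sets of RNA cannot be told from bulk libraries.

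The few mesoderm factors found were low in the Activin A step. Of 20 mesoderm factors listed, 5 were found (HAND1, FOXF1, CDX2, TBX20 and ISL1), and none had a value above 12 at D0 to D3. TBX6, MESP1, MSGN1 and EVX1 were among those not found, so the list does not describe mesoderm as a whole. From D3 to D13, 4 of 4 tested were called higher, beside 7.8% of all genes, such as HAND1 (2 to 980) and FOXF1 (0 to 154). EOMES, MIXL1, GSC and LHX1 were at 8 or lower in the D13 library. Among other cell types in which some of these factors are also used, 5 of 10 trophoblast markers were found, with values up to 28 at D1 to D3. Of these, GATA3 was also counted among the endoderm factors, and CDX2 and HAND1 among the mesoderm factors. From D3 to D5 GATA3 was the 1 trophoblast marker tested, and it was called higher (28 to 388), beside 2.85% of all genes tested. Of 8 markers of intermediate mesoderm and kidney, 2 were found, of which SALL1 had 39, 83 and 68 at D1 to D3 and GDNF 4, 56 and 57. Of the 9 neurectoderm markers NES alone was found, and it had 768 at D0 and 919 at D3. Of 8 blood and endothelial markers, 5 were found, and KDR had 517 at D0, 106 at D1, 240 at D3 and 823 at D13. The part of such cells in the values of the 4 factors was not tested.

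Relatives of the factors mostly had other courses. Of the 15 other T-box genes listed, 3 were found. TBX3 had 1 at D0, 52 at D2, 470 at D5 and 768 at D7, and TBX20 and MGA also had their highest values at D5 or later. LMX1B and ISL1 were the 2 LIM homeobox genes found of 11, and LMX1B had 5 at D0, 36 at D3 and 6 at D5, all below the minimum for a call. Of 24 paired-like homeobox genes, 3 were found. OTX2 was highest at D3 (936) and had 154 at D5, and PITX1 was at 0 up to D3 and at 242 at D5. LDB1, the partner of LHX1, had values between 228 and 280 from D0 to D5. Of 10 LIM cofactors and LIM-only genes listed, 9 were found and 8 tested from D0 to D3. None was called higher and 2 were called lower, LDB2 (177 to 36) and LMO3 (146 to 6), beside 3.94% and 2.16% of all genes.

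All 4 factors had their highest value at D2 and were called lower from D3 to D5, by unequal amounts. The 250 bases before the RefSeq start of EOMES, MIXL1 and GSC were read from RefSeq sequences (GRCh38.p14), in which 3 of the 4 genes had an entry. They were searched on both strands for 5 short words, the T-box word AGGTGTG, the FOXH1 word AATCCAC, the word CTTTGAT of the TCF/LEF factors of Wnt signalling, the word TAATCC of GSC and OTX factors, and the word TAATTA of many homeobox factors. The FOXH1 word can overlap with that of GSC and OTX. The sequences are shown 5′ to 3′ on the strand of the gene, with matches in capitals. The window of MIXL1 is chr1:226223414-226223663 (plus strand), that of EOMES chr3:27722324-27722573 (minus strand) and that of GSC chr14:94770114-94770363 (minus strand).
MIXL1: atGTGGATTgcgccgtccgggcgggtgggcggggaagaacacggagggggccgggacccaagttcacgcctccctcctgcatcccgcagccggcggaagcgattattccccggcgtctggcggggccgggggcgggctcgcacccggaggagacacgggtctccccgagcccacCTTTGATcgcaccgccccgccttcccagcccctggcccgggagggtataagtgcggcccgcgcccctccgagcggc
EOMES: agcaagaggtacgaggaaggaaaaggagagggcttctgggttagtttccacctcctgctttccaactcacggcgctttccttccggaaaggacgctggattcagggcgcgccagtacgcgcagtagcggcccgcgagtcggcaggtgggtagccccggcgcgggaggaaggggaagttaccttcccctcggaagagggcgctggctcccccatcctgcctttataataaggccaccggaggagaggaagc
GSC: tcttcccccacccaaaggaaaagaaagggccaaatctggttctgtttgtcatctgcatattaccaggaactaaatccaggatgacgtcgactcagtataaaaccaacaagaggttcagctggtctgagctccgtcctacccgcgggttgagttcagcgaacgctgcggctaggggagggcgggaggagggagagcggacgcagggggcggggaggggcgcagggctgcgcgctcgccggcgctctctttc

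MIXL1 held 1 match to CTTTGAT, from -76 to -70 bases from the start, a word found in 2.26% of the 35116 promoters of the same length. It also held 1 match to AATCCAC on the opposite strand, from -248 to -242, a word found in 1.97%. EOMES and GSC held none of the 5 words. The T-box word, the GSC and OTX word and the homeobox word, which none of the 3 windows held, were found in 3.84%, 5.62% and 4.35% of promoters. The share of G and C was 74.0% for MIXL1, 62.0% for EOMES and 59.6% for GSC, with a median of 58.0% over all promoters, and the number of CpG was 30, 19 and 18, with a median of 11. A match is a run of letters and not a bound site, and these windows do not cover more distant elements.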

How the data were processed

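Bulk RNA-seq libraries of H1 cells on 10 days, 1 per day, were analysed from 1 deposited table of 12125 genes. The authors aligned reads with Bowtie2 v2.2.0, quantified them with RSEM v1.2.17 and normalized for GC content with EDASeq. What the authors deposited are scores rather than counts of reads, whole numbers on 1 distribution shared by the libraries. Depth is unknown from them, so no counting interval was computed. Columns were matched to samples by day and title.

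Differences of log2(value + 1) between days were computed for all genes with Python 3.11.15, numpy 2.4.6 and pandas 2.3.3 (plots, matplotlib 3.10.9). A gene was called where the difference reached 2 and the larger value reached 50. No test between days was made, with 1 library per day. The code was tested on simulated data. Genes named are the members found, the 5 genes of highest correlation with each, and members of gene lists. The members and lists were chosen with earlier results of these data known. Some listed genes are not reported here and were left out of their lists and counts. Alternatives were pseudocounts of 0.1 and 5, other scalings, minimum values and thresholds, and other measures of likeness. Single-cell qPCR and other experiments of the study were not analysed here.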

Additional observations from a re-analysis of the deposited data

How the results depend on the processing

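The members called higher or lower were counted again at 7 intervals, under other pseudocounts, scalings, minimum values and thresholds. Of 98 such counts 97 stayed within 1.5 times the count reported. The exception was the step from day 7 to day 9, where without a minimum value 1 member, EOMES, was called lower in place of 0. Inside that margin, 4 members in place of 3 were called higher from day 0 to day 1 without a minimum value. The added member was LHX1 (0 to 42), so its lack of a call at that step rests on the minimum. Sizes depended on the pseudocount where a day is near 0. The log2 difference of LHX1 from day 0 to day 3, 8.06, was 11.38 with a pseudocount of 0.1 and 5.76 with 5, and that of GSC from day 3 to day 5, -8.30, was -11.62 and -6.00. None of the 112 alternative differences of a member reversed a call. The day of the highest value was day 2 for all 4 genes by rank within the library and after scaling by the median of ratios. With no minimum value 571 genes were called higher from day 0 to day 3, with a minimum of 200 it was 156 and with a threshold of 1 it was 991, against 352 as reported; from day 3 to day 5 lower calls were 347, 89 and 640 against 196. Most genes named by Pearson correlation changed with the measure: between 0 and 1 of the 5 were shared with the 5 by Spearman's rho or over days 0 to 7, and 3 or 4 with a minimum of 200. No paired analysis was possible because each day has 1 library and the labels carry no replicate numbers. With 1 library per day and no depth given for each library, no difference has a replicate check.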
